A study of Mus musculus with 24 samples.

Results

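Long noncoding RNAs that are made in muscle cells or held in the nucleus were followed in differentiating C2C12 cells, a mouse myoblast line. Genes were chosen by name: Mir1a-1hg, the host of a muscle microRNA pair; the imprinted genes H19, Meg3, Rian and Mirg; and the nuclear RNAs Malat1 and Neat1. A gene entered if its name had a row in the deposited counts, so the only measured value the choice used was presence in a table already filtered by the submitters. That held for 4 of the 7 genes (Mir1a-1hg, H19, Malat1 and Neat1), of 14693 genes in all, and all 4 were among the 12994 genes tested. Meg3, Rian and Mirg were not analysed here. The 7 names were put together with results of these data known, so the calls below are no independent evidence about such RNAs as a class.

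All cells were wild type by their labels and were moved from 10% fetal bovine serum to 2% horse serum, which starts fusion into myotubes. During differentiation they received vehicle (its composition is not given in the sources used here), 100 µM linoleic acid (LA), a dietary polyunsaturated fat given here with albumin as its carrier, or 10 ng/mL recombinant mouse ANGPTL4, a secreted inhibitor of lipoprotein lipase. RNA was taken at day 2 or day 6, which gave 6 groups of 4 libraries. The series asks which genes respond to LA and to ANGPTL4. C2C12 is a single immortal line, and nothing in the labels says that the 4 libraries of a group came from separate cultures, so p-values measure only the spread between these libraries.

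Mir1a-1hg is the long primary transcript from which miR-1a and miR-133a are cut. These microRNAs are switched on by MyoD, MEF2 and serum response factor during myogenesis, miR-1 favouring differentiation and miR-133 proliferation. H19 is expressed from the maternal chromosome beside the paternally expressed growth factor gene Igf2; it is abundant in embryonic muscle and carries miR-675 in its first exon. Malat1 collects in nuclear speckles, bodies rich in splicing factors. Neat1 is the scaffold of paraspeckles, and its shorter, polyadenylated form shares a start with the long form that builds them. Malat1 and Neat1 are neighbours on chromosome 19.

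The microRNAs are shown first because they are the known small products of 2 of these transcripts. In the RefSeq set for GRCm38.p6, 2 microRNA genes lay inside Mir1a-1hg (Mir1a-1 and Mir133a-2) and 1 inside H19 (Mir675). Mature forms with an entry were miR-1a-1-5p at chr2:180389057-180389079 on the plus strand, and miR-675-5p at chr7:142577112-142577133 and miR-675-3p at chr7:142577078-142577099 on the minus strand. Mature miR-1a-3p, the arm usually meant by miR-1, and miR-133a had no entry, so the seed behind the target list below is not shown. Capitals mark the seed, bases 2 to 8, which pairs with targets, and the 3 seeds differ from each other.
mmu-miR-1a-1-5p: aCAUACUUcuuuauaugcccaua
mmu-miR-675-5p: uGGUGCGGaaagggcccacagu
mmu-miR-675-3p: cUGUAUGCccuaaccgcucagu
These letters are the mature RNAs, which a library of transcript ends does not count.

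Promoters are shown for Mir1a-1hg and Malat1 because H19 and Neat1 had no promoter entry. Each window runs from 250 bases before to 50 bases after the RefSeq start (GRCm38.p6), at chr2:180385354-180385653 on the plus strand for Mir1a-1hg and at chr19:5802623-5802922 on the minus strand for Malat1. Capitals mark CAGCTG, an E-box of the kind myogenic factors bind, and the core promoter motif TATATAA.
Mir1a-1hg: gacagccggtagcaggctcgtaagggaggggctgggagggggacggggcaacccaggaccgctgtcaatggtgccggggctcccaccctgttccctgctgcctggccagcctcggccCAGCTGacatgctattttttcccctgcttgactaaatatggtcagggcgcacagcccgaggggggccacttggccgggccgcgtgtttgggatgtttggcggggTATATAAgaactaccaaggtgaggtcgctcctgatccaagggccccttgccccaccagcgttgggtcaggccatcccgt
Malat1: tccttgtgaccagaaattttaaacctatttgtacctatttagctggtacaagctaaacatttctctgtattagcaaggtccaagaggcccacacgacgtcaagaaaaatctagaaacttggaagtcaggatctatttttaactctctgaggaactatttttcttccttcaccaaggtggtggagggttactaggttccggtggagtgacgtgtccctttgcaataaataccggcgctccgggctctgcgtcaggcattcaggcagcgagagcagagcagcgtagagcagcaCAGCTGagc
CAGCTG occurred once in each window, at bases 118 to 123 of the 300 for Mir1a-1hg and 292 to 297 for Malat1, the first 250 bases lying before the annotated start. Searched on both strands, it is its own reverse complement and occurs in 16.3% of 32851 promoter windows of this length. The wider E-box CANNTG, which includes CAGCTG, was found in 72.3% of windows, 2 times in that of Mir1a-1hg and 1 time in that of Malat1. TATATAA, in 3.24% of windows, lay at bases 222 to 228 of Mir1a-1hg, before the start, and had no match in that of Malat1. The CArG box of serum response factor, in 1.63% of windows, matched neither. The windows had 64.3% and 47% G and C.

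Libraries were made by priming at the poly(A) tail, so the last bases of a transcript matter for what is counted. The final 60 bases of the longest annotated transcript (GENCODE M21, GRCm38.p6) are given for H19 (2286 nucleotides, 5 exons), Malat1 (6983 nucleotides, 1 exon) and Neat1 (20771 nucleotides, 1 exon), with the polyadenylation signal AATAAA in capitals.
H19: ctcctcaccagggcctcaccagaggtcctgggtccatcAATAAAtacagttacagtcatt
Malat1: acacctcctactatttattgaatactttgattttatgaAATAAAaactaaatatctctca
Neat1: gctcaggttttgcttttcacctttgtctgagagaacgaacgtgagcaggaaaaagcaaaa
H19 and Malat1 carry AATAAA near the annotated end, but whether a tail is added there was not tested. The Neat1 window holds neither this signal nor its common variant ATTAAA. It is the end of the longest transcript, and the end of the shorter, polyadenylated form is not shown. The Malat1 transcript also holds 1 run of at least 8 A, which is 12 long. Which end or A run gave the reads was not tested, and the counts do not separate the short from the long form of Neat1.

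Library totals ran from 6100684 to 25049912 counts, and libraries of a group correlated in log2 CPM at 0.986 to 0.997. The Angptl4 gene stood at 79.8 to 82.7 CPM (counts scaled to the library total) with LA at day 2, 261 to 306 with LA at day 6 and 17.5 to 22.4 in all other libraries. All 8 muscle markers had rows, with a summed 9376 to 13719 CPM. Of 8 adipocyte markers, Lpl and Pparg were analysed (8.89 to 83.7 CPM together), macrophage markers summed to at most 7.56 and endothelial markers to at most 1.96 CPM. Fibroblast markers had 7 of 8 rows, at 7009 to 8173 CPM at day 2 and 8986 to 13265 at day 6. Within their groups, LA replicate 3 and ANGPTL4 replicate 4 of day 2 and ANGPTL4 replicate 1 of day 6 stood apart on the main component of the spread (-14.3, 14.0 and 26.5). LA replicate 4 of day 6 lay nearly as far out (-13.7) but was not among the 3 left out together. Values without one or all of the 3 are given where they changed a call or moved a value by much.

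Counts were tested for all genes at once with edgeR's quasi-likelihood model and Benjamini-Hochberg adjustment, and a gene was called at an adjusted p under 0.05. With ANGPTL4 at day 2, 3 of the 4 RNAs were called lower than with vehicle, against 9.82% of all genes called in either direction, 5.96% lower and 3.86% higher. The share of counts in 82 ribosomal protein genes moved with this, at 2.12% to 2.51% in the ANGPTL4 libraries and 1.57% to 2.01% in the vehicle libraries of day 2; its part in the result was not tested. Mir1a-1hg, Malat1 and Neat1, the 3 called, varied together within groups (r = 0.75 to 0.86, below), so their calls are not separate observations. On the second component of log2 CPM of all genes, signed to rise with Malat1, day 2 vehicle lay at 10.0 to 15.7. Day 2 ANGPTL4 lay at -19.7 to -4.61, day 2 LA replicate 3 at -19.3 and day 6 ANGPTL4 replicate 1 at 18.7. The part of this component in the calls was not tested. Between day 2 and day 6 in vehicle, all 4 were called lower, where 45.6% of genes were called, 20.5% lower and 25.2% higher. Fibroblast markers moved with the day, 5 of 7 called higher and 1 lower in vehicle; their part in the result was not tested. With LA the fall over time was called for H19 and Neat1 (43.8% of genes called, 20.7% lower and 23.1% higher), and with ANGPTL4 for H19 alone (42.2% called, 19.8% lower and 22.4% higher).

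No RNA of the set was called for LA against vehicle at day 2, where 15.1% of genes were called (6.82% lower, 8.27% higher), or at day 6, where 17.2% were (9.38% lower, 7.83% higher). None was called for ANGPTL4 against vehicle at day 6, where 0.0231% of genes were (0.0077% lower, 0.0154% higher). Nor was any called for LA against ANGPTL4 at day 2 (0.0924% of genes, 0.0308% lower and 0.0616% higher) or day 6 (13.9%, 7.32% lower and 6.6% higher). The treatment effects themselves differed between the days for 19.7% of genes with LA (11% lower, 8.68% higher at day 6) and 0.277% with ANGPTL4 (0.192% lower, 0.0847% higher), and for 0 of the 4 RNAs. In edgeR, 0 of the 4 had an unadjusted p under 0.05 in these comparisons except LA against ANGPTL4 at day 2, where 3 had, and the difference of ANGPTL4 effects, where 2 had. DESeq2 and limma-voom called 0 in each, except that DESeq2 called 1 for LA against ANGPTL4 at day 2. The vehicle libraries serve both treatments at a given day, so the contrasts with vehicle are not independent of each other.

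**Figure D1:**
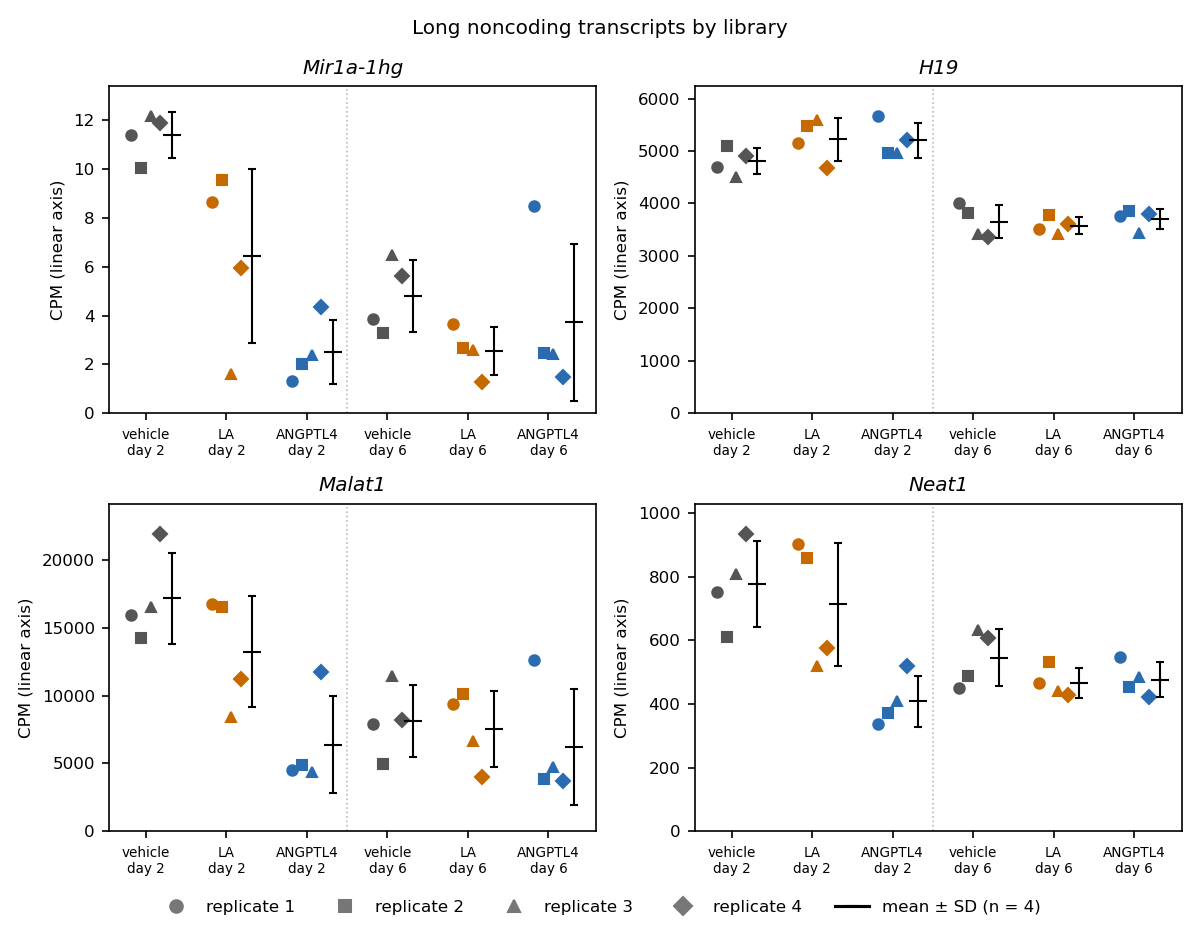
CPM (linear axis from 0) of Mir1a-1hg, H19, Malat1 and Neat1 in 24 libraries, by treatment and day; shapes are replicates 1 to 4 and the black mark is the mean ± SD (n = 4). The day 2 vehicle libraries of Mir1a-1hg, 10.1 to 12.2 CPM, lie above all other libraries, and H19 separates by day.

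**Figure D2:**
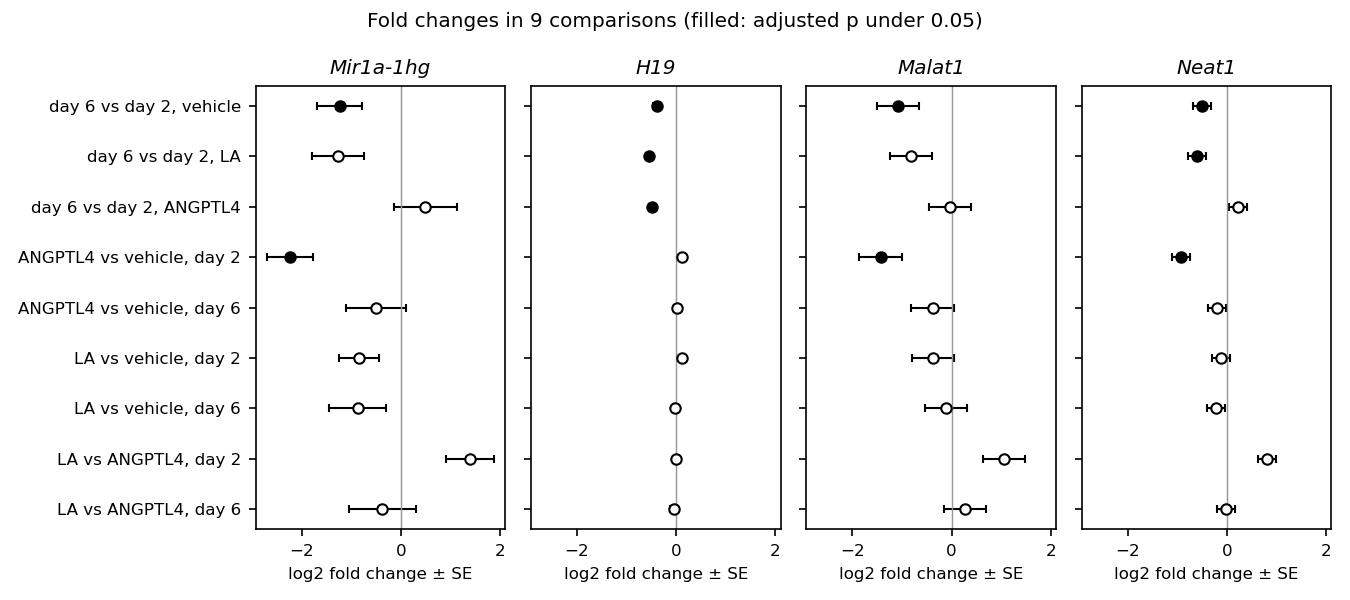
Log2 fold change with its standard error (horizontal axis) of the 4 RNAs in 9 comparisons (vertical axis); filled points have an adjusted p under 0.05. ANGPTL4 against vehicle at day 2 has filled points left of 0 for Mir1a-1hg, Malat1 and Neat1 and an open point near 0 for H19.

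Mir1a-1hg, the microRNA host, was lower with ANGPTL4 at day 2. Vehicle libraries of day 2 held 11.4, 10.1, 12.2 and 11.9 CPM in replicates 1 to 4. ANGPTL4 libraries held 1.31, 2.03, 2.38 and 4.36 CPM. Every ANGPTL4 library was below every vehicle library, and replicate 4 was the highest of its group. The means were 2.52 ± 1.30 and 11.4 ± 0.941 CPM (SD, n = 4), a 4.69-fold lower level (log2 fold change -2.23, SE 0.470, adjusted p = 0.00870). Without ANGPTL4 replicate 4 the log2 fold change was -2.59 (adjusted p = 0.00705).

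With LA at day 2, Mir1a-1hg stood at 8.66, 9.54, 1.61 and 5.93 CPM. All 4 LA libraries were below all 4 vehicle libraries, but they were far apart, replicate 3 being the lowest. The mean was 6.43 ± 3.56 CPM (SD, n = 4), and the difference from vehicle did not pass (log2 fold change -0.84, SE 0.401, 95% interval -1.68 to 0.0081, adjusted p = 0.173). Without LA replicate 3 it was -0.46 (adjusted p = 0.417). Against ANGPTL4 at the same day LA was 1.39 higher on the log2 scale (SE 0.483, adjusted p = 0.234), and this passed without LA replicate 3 (1.78, adjusted p = 0.0213).

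At day 6 the vehicle libraries of Mir1a-1hg held 3.85, 3.29, 6.47 and 5.604 CPM, all below those of day 2. The fall in vehicle was 2.35-fold (log2 fold change -1.23, SE 0.451, adjusted p = 0.0327). It no longer passed without day 2 vehicle replicate 3 (0.0534) or 4 (0.0604), without day 6 vehicle replicate 1 (0.0767) or 2 (0.0791), or in limma-voom (0.0512). LA libraries of day 6 held 3.65, 2.67, 2.57 and 1.28 CPM and ANGPTL4 libraries 8.50, 2.48, 2.43 and 1.46 CPM. Both ranges overlapped that of vehicle, and ANGPTL4 replicate 1 alone was higher than every other library of that day.

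Against vehicle at day 6, Mir1a-1hg had a log2 fold change of -0.87 with LA (SE 0.579, adjusted p = 0.361), which did not pass. It passed at a like size with only the compared groups (-0.86, adjusted p = 0.0436) and without the 3 libraries that stood apart (-0.86, adjusted p = 0.0214). Without day 6 LA replicate 4 it was -0.65 (adjusted p = 0.582). With the component of the within-group spread as a covariate it was -0.95 (adjusted p = 0.00480). That covariate takes up the spread of Mir1a-1hg by construction, so the pass with it is no support. For ANGPTL4 the value was -0.50 (SE 0.604, adjusted p = 0.793), and -1.20 without day 6 ANGPTL4 replicate 1 (adjusted p = 0.467).

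From day 2 to day 6 Mir1a-1hg changed by -1.26 with LA (SE 0.522, adjusted p = 0.0576) and 0.50 with ANGPTL4 (SE 0.641, adjusted p = 0.570). The ANGPTL4 value turned to -0.20 without day 6 replicate 1 (adjusted p = 0.848) and was 0.84 without day 2 replicate 4 (adjusted p = 0.366), so its sign rested on 1 library. That with LA passed without day 2 LA replicate 3 (0.00243) or day 6 ANGPTL4 replicate 1 (0.0396), and with DESeq2 (0.0284). The ANGPTL4 effect at day 6 minus that at day 2 was 1.73 (95% interval 0.0568 to 3.401, adjusted p = 0.254), and 1.05 without day 6 ANGPTL4 replicate 1 (adjusted p = 0.574), so a difference between the days was not shown. In the order of group means only day 2 vehicle and the next, day 2 LA, had ranges that did not overlap.

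Both microRNA genes inside Mir1a-1hg have rows of their own in the table. The counting settings are not given in the sources used here, so reads of the host and of the microRNA genes within it cannot be fully told apart, and their counts were low. Mir1a-1 had 8, 14, 11 and 7 counts in the day 2 vehicle libraries and 4, 2, 6 and 4 in the ANGPTL4 libraries. Scaled to library size, every ANGPTL4 library (0.135 to 0.317 CPM) was below every vehicle library (0.577 to 1.11 CPM). The log2 fold change was -1.78 (SE 0.509, adjusted p = 0.0254). It did not pass without vehicle replicate 2 (0.0631) or 3 (0.0585) or ANGPTL4 replicate 1 (0.0554) or 2 (0.0576).

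Mir133a-2 had 12, 18, 17 and 14 counts in the vehicle libraries of day 2, 17, 10, 15 and 17 with ANGPTL4 and 62, 34, 48 and 8 with LA. Library totals differed, and in CPM LA stood at 1.77 ± 0.681 and vehicle at 1.29 ± 0.291 (SD, n = 4). LA against vehicle did not pass (log2 fold change 0.57, SE 0.263, adjusted p = 0.144), but did without day 2 LA replicate 4 (0.71, adjusted p = 0.0403). ANGPTL4 and vehicle overlapped in CPM, with a log2 fold change of -0.54 (SE 0.304, adjusted p = 0.263). Over time it fell with LA (log2 fold change -1.59, SE 0.314, adjusted p = 0.000119), from 1.77 ± 0.681 to 0.667 ± 0.316 CPM (SD, n = 4). Vehicle changed by -0.09 over the same days (SE 0.311, adjusted p = 0.833). The LA effect differed between the days by -1.50 (SE 0.451, adjusted p = 0.0181), a difference that did not pass without day 6 vehicle replicate 1 (0.0657) or day 6 LA replicate 1 (0.0594).

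**Figure D3:**
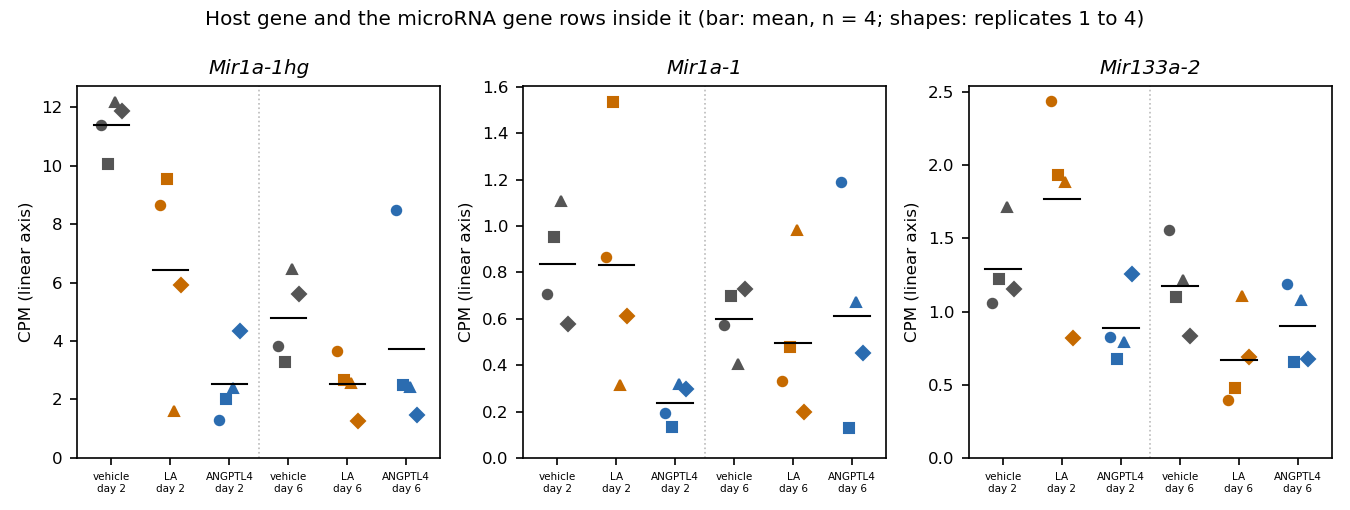
CPM (linear axes from 0) of Mir1a-1hg and of the microRNA gene rows Mir1a-1 and Mir133a-2 inside it, by treatment and day; shapes are replicates 1 to 4 and the line is the mean (n = 4). Mir1a-1 with ANGPTL4 at day 2 lies below all day 2 vehicle libraries, whereas Mir133a-2 overlaps them.

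Regulators of the muscle microRNA genes had 12 tested members. Under ANGPTL4 at day 2, 1 was called higher and 2 lower, against 3.86% and 5.96% of all genes. The median log2 fold change was 0.03 against 0.02 over all genes. Myod1, which encodes the myogenic factor MyoD, was 0.22 higher (SE 0.0528, adjusted p = 0.00945). The call was lost with only the compared groups (0.0590) and without vehicle replicate 2 (0.0537). Mrtfb, a coactivator of serum response factor, was at -0.26 (SE 0.0674, adjusted p = 0.0145), a call lost without vehicle replicate 4 (0.0744). Mef2c, a muscle transcription factor, was at -0.24 (SE 0.0739, adjusted p = 0.0381), a call not examined under the alternatives.

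Over time in vehicle, 3 regulators were called higher and 5 lower (25.2% and 20.5% of all genes; median -0.07 against 0.02). Mef2c rose by 1.69 on the log2 scale (SE 0.0748, adjusted p = 1.14e-16). Myf5, a marker of undifferentiated myoblasts, fell by 0.86 (SE 0.112, adjusted p = 1.62e-07). Myod1 was also among those called lower, at -0.18 (SE 0.0538, adjusted p = 0.00589), a call not examined under the alternatives. Mir1a-1hg fell over the same days, and a link to any of these regulators was not tested.

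Reported targets of miR-1, miR-133 and miR-206 had 23 tested members. Mef2a and Srf are on this list and on that of the regulators, so the counts of the lists are not separate. At day 2 with ANGPTL4, 1 was called higher and 3 lower, against 3.86% and 5.96% of all genes (median log2 fold change -0.0025 against 0.02). Utrn, which encodes utrophin, was lower by 0.41 on the log2 scale (400.7 ± 13.3 against 534 ± 23.96 CPM, SD, n = 4, adjusted p = 0.00257). Hdac4, a repressor of MEF2, had a log2 fold change of -0.28 (adjusted p = 0.0197), which did not pass without vehicle replicate 4 (0.0667). In vehicle over time 2 were called higher and 13 lower, against 25.2% and 20.5% of all genes (median -0.28 against 0.02). Pax7, a satellite cell factor, fell by 1.097 on the log2 scale (adjusted p = 3.54e-12) and Timp3 rose by 0.92 (adjusted p = 1.61e-12).

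H19, the imprinted RNA, moved with day and was not called for any treatment. Vehicle libraries of day 2 held 4703, 5094, 4514 and 4905 CPM. Those of day 6 held 4015, 3824, 3424 and 3355 CPM. Each library of day 6 was below each of day 2, a 1.31-fold fall (log2 fold change -0.39, SE 0.0624, adjusted p = 4.62e-06). H19 varied less between libraries of a group than Mir1a-1hg or Malat1 did, with a within-group SD of 0.0935 on the log2 scale, at the 31.6th percentile of all genes.

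LA libraries held 5151, 5474, 5589 and 4684 CPM of H19 at day 2 and 3509, 3787, 3410 and 3606 at day 6. ANGPTL4 libraries held 5673, 4970, 4969 and 5213 CPM at day 2 and 3764, 3849, 3428 and 3801 at day 6. Both treatments overlapped vehicle at each day and separated fully by day. The log2 fold changes over time were -0.55 with LA (SE 0.0624, adjusted p = 1.50e-08) and -0.49 with ANGPTL4 (SE 0.0624, adjusted p = 1.08e-07). The calls over time held in 35 of 35 alternative settings in each treatment.

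Against vehicle at day 2, H19 stood at a log2 fold change of 0.12 with LA (95% interval -0.0096 to 0.252, adjusted p = 0.191) and 0.12 with ANGPTL4 (-0.0147 to 0.247, adjusted p = 0.234). At day 6 the values were -0.03 with LA (-0.161 to 0.101, adjusted p = 0.805) and 0.02 with ANGPTL4 (-0.109 to 0.153, adjusted p = 0.928). The LA effect differed between the days by -0.15 (adjusted p = 0.230). In the order of group means the 3 groups of day 2 lay above the 3 of day 6, and neighbours overlapped except day 2 vehicle and day 6 ANGPTL4.

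Igf2, the growth factor gene paired with H19, fell over time in vehicle from 677 ± 58.5 to 325 ± 47.1 CPM (SD, n = 4; log2 fold change -1.06, SE 0.0862, adjusted p = 4.29e-10). Unlike H19, it was called lower with LA at day 6 (217 ± 15.7 CPM, log2 fold change -0.59, SE 0.0872, adjusted p = 2.49e-05). In that comparison 5 of 7 fibroblast markers were called higher and 7 of 8 muscle markers lower (medians 0.40 and -0.35). Over all genes 7.83% were called higher and 9.38% lower. The part of these markers in the result was not tested. At day 2 the LA value of Igf2 was 682 ± 37.4 CPM (log2 fold change 0.01, adjusted p = 0.947), and the difference of LA effects between the days was -0.60 (SE 0.121, adjusted p = 0.00139). With ANGPTL4 at day 6 Igf2 was at 252 ± 22.0 CPM (log2 fold change -0.37, adjusted p = 0.122). Igf2os, the antisense gene of Igf2, fell over time in vehicle by 0.91 (adjusted p = 9.26e-05), while Nctc1, a noncoding muscle gene on the other side of H19, rose by 1.40 (adjusted p = 2.47e-05). Reads of Igf2 and Igf2os cannot be told apart if strand was not used in counting.

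Imprinted genes had 34 tested members. In vehicle over time 6 were called higher and 15 lower, against 25.2% and 20.5% of all genes (median log2 fold change -0.10 against 0.02). Mest, a paternally expressed gene, fell from 73.0 ± 7.18 to 21.9 ± 1.96 CPM (SD, n = 4, adjusted p = 1.94e-18). With ANGPTL4 at day 2, 1 was called higher and 5 lower, against 3.86% and 5.96% of all genes (median 0.03 against 0.02). Kcnq1ot1, a paternally expressed antisense RNA that stays in the nucleus, was at 29.5 ± 13.2 against 73.3 ± 15.8 CPM (SD, n = 4), with a log2 fold change of -1.33 (SE 0.333, adjusted p = 0.0195). That call was lost without vehicle replicate 4 (0.0569) and with only the compared groups (0.0671). Over time in vehicle Kcnq1ot1 fell by 2.19 (SE 0.372, adjusted p = 9.52e-05).

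Meg3, Rian and Mirg come from the imprinted Dlk1-Dio3 domain, which holds many microRNA and small nucleolar RNA genes. Of the domain list, 5 genes were tested. At day 2, 0 were called with ANGPTL4 (9.82% of all genes) and 0 with LA (15.1%), with medians of 0.05 and -0.06. In vehicle over time 1 was called higher and 1 lower (45.6% of all genes called; median 0.04). So few genes can show little either way. Dlk1, Rtl1 and Dio3 were not analysed here.

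Malat1, the speckle RNA, was lower with ANGPTL4 at day 2. Vehicle libraries held 15968, 14258, 16531 and 21969 CPM. ANGPTL4 libraries held 4543, 4887, 4360 and 11732 CPM. The groups did not overlap, and ANGPTL4 replicate 4 lay far above the other libraries of its group. The level was 2.69-fold lower (log2 fold change -1.43, SE 0.434, adjusted p = 0.0447), from 17181 ± 3335 to 6380 ± 3575 CPM (SD, n = 4).

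That call for Malat1 was close to the threshold. It did not pass without day 2 vehicle replicate 1 (0.0561), 2 (0.0576), 3 (0.0654) or 4 (0.106), or ANGPTL4 replicate 1 (0.0992), 2 (0.0985) or 3 (0.104). Leaving out day 6 vehicle replicate 1 (0.0504) or 4 (0.0509) or day 6 LA replicate 1 (0.0510) or 3 (0.05001) also ended it, as did fitting only the compared groups (0.0908). Without ANGPTL4 replicate 4 it passed, at -1.91 (adjusted p = 0.0154), and without all 3 libraries that stood apart at -1.91 (adjusted p = 0.000991). The direction held in all 35 alternatives.

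With LA at day 2, Malat1 stood at 16806, 16540, 8426 and 11241 CPM. Replicates 1 and 2 were within the vehicle range and the other two below it. The log2 fold change from vehicle was -0.37 (SE 0.426, 95% interval -1.27 to 0.52, adjusted p = 0.601), and -0.22 without LA replicate 3 (adjusted p = 0.837). LA against ANGPTL4 at day 2 gave 1.05 (SE 0.430, adjusted p = 0.306) in Malat1. This passed only without the 3 libraries that stood apart (1.69, adjusted p = 0.00844) and with the component of the within-group spread as a covariate (1.12, adjusted p = 2.82e-05). The covariate takes up the spread of Malat1 by construction, so the pass with it is no support.

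At day 6 the vehicle libraries of Malat1 held 7887, 4926, 11443 and 8180 CPM, each below each vehicle library of day 2. The fall was 2.12-fold (log2 fold change -1.08, SE 0.430, adjusted p = 0.0474). It did not pass without day 2 vehicle replicate 1 (0.0592), 3 (0.0627) or 4 (0.114), day 6 vehicle replicate 1 (0.0830), 2 (0.123) or 4 (0.0768), or day 6 LA replicate 1 (0.0526) or 3 (0.0505). LA libraries held 9359, 10162, 6637 and 3974 CPM and ANGPTL4 libraries 12651, 3856, 4713 and 3671 CPM. All 3 groups of day 6 overlapped, and ANGPTL4 replicate 1 was the highest library of the day.

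Against vehicle at day 6 Malat1 had a log2 fold change of -0.11 with LA (SE 0.426, adjusted p = 0.905) and -0.38 with ANGPTL4 (SE 0.427, adjusted p = 0.775). From day 2 to day 6 it changed by -0.81 with LA (SE 0.428, adjusted p = 0.133) and -0.04 with ANGPTL4 (SE 0.426, adjusted p = 0.957). The ANGPTL4 effect differed between the days by 1.05 (95% interval -0.222 to 2.31, adjusted p = 0.363). Single libraries moved these ANGPTL4 values. Without day 6 ANGPTL4 replicate 1 Malat1 stood at -0.99 against vehicle at day 6 (adjusted p = 0.301), -0.64 over time (adjusted p = 0.199) and 0.46 for the difference of effects (adjusted p = 0.701). Without day 2 ANGPTL4 replicate 4 the change over time was 0.42 (adjusted p = 0.465) and the difference of effects 1.53 (adjusted p = 0.236). All neighbours in the order of group means overlapped.

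Neat1, the paraspeckle RNA, was lower with ANGPTL4 at day 2 by a smaller fold and with less spread. Vehicle libraries held 753, 609, 809 and 935 CPM. ANGPTL4 libraries held 336, 370.0, 408 and 519 CPM. The groups did not overlap, and ANGPTL4 replicate 4 was again the highest of its group. The level was 1.90-fold lower (log2 fold change -0.93, SE 0.183, adjusted p = 0.00644), a call that held in 35 of 35 alternatives.

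LA libraries of day 2 held 901, 857, 520 and 575 CPM of Neat1, overlapping vehicle (log2 fold change -0.12, SE 0.181, adjusted p = 0.705). All 4 were above all 4 ANGPTL4 libraries, although LA replicate 3 (519.6) and ANGPTL4 replicate 4 (519.3) all but tied. The difference between LA and ANGPTL4 was 0.81 (SE 0.183, adjusted p = 0.0792) and did not pass, where few genes did. It passed without day 2 LA replicate 3 (0.0152) or 4 (0.0133), without ANGPTL4 replicate 4 (0.0315), and with DESeq2 (0.00810).

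At day 6 Neat1 stood at 449, 489, 632 and 608 CPM with vehicle, 465, 533, 440.1 and 428 with LA, and 549, 452, 483 and 421 with ANGPTL4. The 3 groups overlapped. Against vehicle the log2 fold change was -0.22 with LA (SE 0.183, adjusted p = 0.476) and -0.20 with ANGPTL4 (SE 0.184, adjusted p = 0.725). Over time Neat1 fell by 0.51 in vehicle (SE 0.183, adjusted p = 0.0287) and 0.61 with LA (SE 0.183, adjusted p = 0.0109). The fall in vehicle did not pass without day 2 vehicle replicate 4 (0.0997) or day 6 vehicle replicate 1 (0.0722) or 2 (0.0626). With ANGPTL4 the change over time was 0.22 (SE 0.184, adjusted p = 0.362), and the ANGPTL4 effects at the 2 days differed by 0.73 (95% interval 0.188 to 1.28, adjusted p = 0.148). No neighbours in the order of group means were free of overlap.

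Ltbp3, Frmd8 and Slc25a45, coding genes near Malat1 and Neat1, had values above 0 with ANGPTL4 at day 2. Their log2 fold changes were 0.15, 0.22 and 0.41, with adjusted p of 0.0381, 0.0774 and 0.0423. Ltbp3 and Slc25a45 were thus called higher, calls lost in 23 and 20 of 35 alternatives.

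Paraspeckle proteins had 32 tested members. At day 2 with ANGPTL4, 0 were called higher and 5 lower, against 3.86% and 5.96% of all genes (median log2 fold change -0.05 against 0.02). Rbm12, an RNA-binding protein gene, had -0.25 (SE 0.0621, adjusted p = 0.0114). In vehicle over time 0 were called higher and 24 lower, against 25.2% and 20.5% of all genes (median -0.25 against 0.02). Among the lower genes was Rbmx at -0.70 (SE 0.0650, adjusted p = 1.52e-10). With LA at day 2, 5 were higher and 4 lower, against 8.27% and 6.82% of all genes. Hnrnpa1, a splicing regulator, was 0.30 higher (SE 0.0546, adjusted p = 0.00104).

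Nuclear speckle proteins had 35 tested members. At day 2 with ANGPTL4, 5 were called higher and 1 lower, against 3.86% and 5.96% of all genes (median 0.05 against 0.02). U2af1, which encodes the small subunit of a factor that recognises 3′ splice sites, was 0.28 higher (SE 0.0706, adjusted p = 0.0131), a call lost without vehicle replicate 2 (0.0753) and with only the compared groups (0.139). Dyrk1a, which encodes a kinase, was the gene called lower (log2 fold change -0.24, SE 0.0483, adjusted p = 0.00391). In vehicle over time 0 were higher and 27 lower, against 25.2% and 20.5% of all genes (median -0.28 against 0.02). Pnn was at -0.52 (SE 0.0667, adjusted p = 1.39e-07) and Prpf4b, a splicing kinase gene, at -0.48 (SE 0.0562, adjusted p = 2.10e-08). In bulk RNA, fewer cells of a type and less RNA per cell cannot be told apart.

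Other long noncoding genes, the 4 RNAs left out, had 50 tested members. With ANGPTL4 at day 2, 0 were called higher and 5 lower, against 3.86% and 5.96% of all genes (median 0.0021 against 0.02). Kcnq1ot1, given above with the imprinted genes, is on this list too and is 1 of the 5. Carmn, a noncoding gene of muscle and heart that hosts other microRNAs, was at 2.69 ± 0.681 against 7.00 ± 1.14 CPM (SD, n = 4), with a log2 fold change of -1.40 (SE 0.236, adjusted p = 0.00200). Within groups Kcnq1ot1 and Carmn varied with Mir1a-1hg, Malat1 and Neat1 (below), so the calls of these genes are not separate observations. In vehicle over time 0 were higher and 21 lower, against 25.2% and 20.5% of all genes (median -0.31 against 0.02). Carmn was at -1.31 (SE 0.252, adjusted p = 0.000142).

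LA at day 2 gave another picture in that list, with 14 called higher and 0 lower (median 0.07 against 0.0054 over all genes). Over all genes 8.27% were called higher and 6.82% lower. Snhg3, a host of small nucleolar RNAs, was 0.97 higher (SE 0.185, adjusted p = 0.00161) and Zfas1, another such host, 0.65 higher (SE 0.130, adjusted p = 0.00322). Both calls were lost when only the compared groups were fitted (0.0599 and 0.0669). The ribosomal protein share was 1.96% to 3.05% with LA and 1.57% to 2.01% with vehicle at day 2; its part in this was not tested either. At day 6, 0 of the 50 were called in either direction with LA, where 17.2% of all genes were.

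Mir1a-1hg, Malat1 and Neat1 varied together between libraries of the same group. Deviations of log2 CPM from the group mean were compared over the 24 libraries with 100000 permutations within groups, 10 relations in all. Mir1a-1hg and Malat1 had r = 0.86 and rho = 0.89 (permutation p = 3e-05 for both, adjusted 0.000133 and 0.0001). Without day 2 LA replicate 3 and day 6 ANGPTL4 replicate 1, the 2 libraries farthest from the median, r was 0.85. The relation was positive in 6 of 6 groups.

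Mir1a-1hg and Neat1 had r = 0.76 and rho = 0.76 (permutation p = 4e-05 and 3e-05, adjusted 0.000133 and 0.0001; r = 0.73 without the same libraries). Malat1 and Neat1 had r = 0.75 and rho = 0.74 (permutation p = 1e-05 for both, the smallest these permutations can give, adjusted 0.0001; r = 0.73 without day 6 ANGPTL4 replicate 1 and day 2 ANGPTL4 replicate 4). Each was positive in 6 of 6 groups. The points share libraries and their depth. The shared spread was not limited to these RNAs. Deviations of Kcnq1ot1 had r = 0.80 with Mir1a-1hg, 0.88 with Malat1 and 0.72 with Neat1. Those of Carmn had r = 0.71, 0.75 and 0.60 in the same order. These values for Kcnq1ot1 and Carmn were not among the relations permuted.

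H19 did not take part. Its deviations had r = -0.31 with Mir1a-1hg, -0.09 with Malat1 and -0.26 with Neat1 (rho = -0.36, -0.20 and -0.30; permutation p = 0.211, 0.711 and 0.338 for r and 0.12, 0.415 and 0.243 for rho; adjusted 0.422, 0.749 and 0.563 for r and 0.24, 0.531 and 0.405 for rho). Without the 2 farthest libraries r was -0.30, -0.14 and -0.34. With the ribosomal protein share H19 had r = 0.54 and rho = 0.50 (permutation p = 0.0324 and 0.0409, adjusted 0.081 and 0.102; r = 0.62 without day 2 LA replicate 4 and vehicle replicate 2). Mir1a-1hg, Malat1 and Neat1 had r = -0.14, 0.13 and 0.14 with that share (permutation p = 0.656, 0.532 and 0.749, adjusted 0.749 for each). Their rho was -0.01, 0.17 and 0.14 (permutation p = 0.952, 0.425 and 0.628, adjusted 0.952, 0.531 and 0.698). Without day 2 LA replicate 4 and vehicle replicate 2 their r was -0.19, 0.06 and -0.235. Within-group SDs on the log2 scale were 0.75 for Mir1a-1hg, 0.59 for Malat1 and 0.26 for Neat1, at the 99.4th, 98.0th and 81.4th percentile of all genes, whose median was 0.12.

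**Figure D4:**
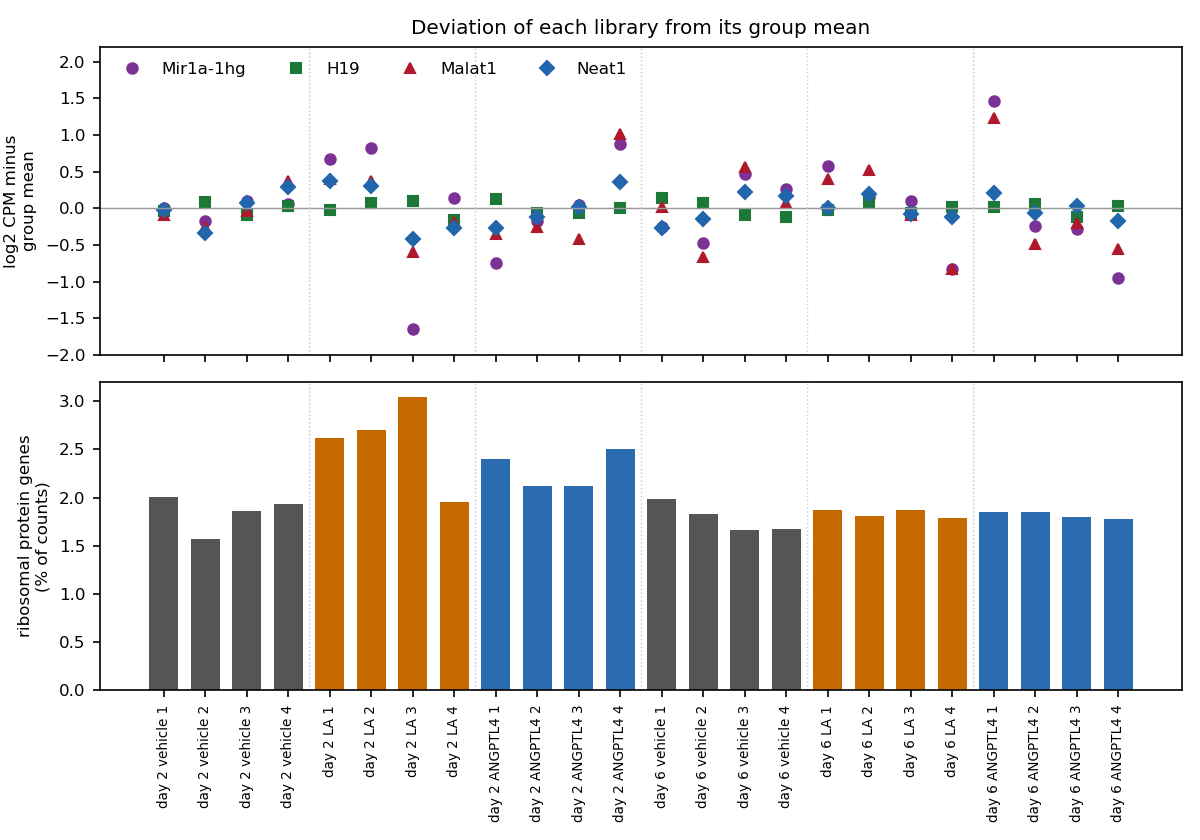
Upper panel: log2 CPM minus the group mean (vertical axis) of the 4 RNAs in each of the 24 libraries; lower panel: ribosomal protein genes as % of counts, on an axis from 0. Mir1a-1hg, Malat1 and Neat1 lie below 0 together in day 2 LA replicate 3 and above 0 together in day 2 ANGPTL4 replicate 4 and day 6 ANGPTL4 replicate 1, while H19 stays near 0.

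The genes whose log2 CPM was most like each RNA over the 24 libraries were sought among 10273 genes with a mean of at least 5 CPM. These r describe the libraries, which share depth and group, and the second value is that of deviations from group means. For Malat1 they were Lrrtm2 (0.97 and 0.96), Cep295nl (0.96 and 0.92) and Hoxc8 (0.92 and 0.90). For Mir1a-1hg they were Gm16907 (0.95 and 0.91), Ppargc1b (0.94 and 0.92) and Rbm15 (0.93 and 0.89).

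For Neat1 the 3 nearest genes included Malat1 (0.87 and 0.75) and Mir1a-1hg (0.87 and 0.76), after 5031425E22Rik (0.90 and 0.78). For H19 they were Acta2, the smooth muscle actin gene (0.97 and 0.69), Nhp2 (0.96 and 0.68) and Idh2 (0.96 and 0.82). Acta2 stood at 2458 ± 205.8 CPM in vehicle at day 2 and 1801 ± 120.0 at day 6 (SD, n = 4).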

How the data were processed

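The authors deposited unnormalized counts for each gene symbol, made from QuantSeq 3′ libraries of total RNA with an integrity number above 7, per the labels' protocols. The build mm39, the aligner STAR 2.7.1a, the counter HTSeq 0.9.1, the trimmer Trimmomatic and both DESeq and DESeq2 are named, per the submitters' processing notes; counting and strand settings are not given in the sources used here. The lowest gene total was 51.

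Genes with low counts were removed with filterByExpr (1699 of 14693), leaving 12994. TMM scaling and the robust quasi-likelihood fit used edgeR 4.0.16 in R 4.3.3, on 24 libraries and 6 group means (18 residual degrees of freedom, common biological coefficient of variation 6.51%), with two-sided tests in 11 comparisons. Approximate SEs divide the fold change (log2) by the root of F. CPM use TMM-scaled totals; log2 CPM a prior count of 2. Intervals are 95%.

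Members and lists were chosen with earlier results of these data known. Named were all members, Igf2, up to 2 called genes per list, direction and comparison with at least 5 CPM, and for each member the 3 genes with the highest r; not all such genes are named, and examples were picked from these after their values were seen, and Igf2os, Nctc1, Mir1a-1, Mir133a-2 and Ltbp3, Frmd8 and Slc25a45 for their position.

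Alternatives were DESeq2 size factors, library totals alone, no filter, 5 CPM in 4 libraries, DESeq2 1.42.0, limma-voom (limma 3.58.1), only the compared groups, a replicate block, a covariate (the first component of deviations from group means, which includes the members) and each library left out. Because the covariate is drawn from the same deviations, it takes up spread of the members by construction. Smaller p-values with it are therefore no support. Leaving out the 2 or 3 libraries that stood apart was added after seeing the data. On simulated counts of LA against vehicle at day 2 (12994 genes), 100% of 100 genes changed 2-fold and 100% of those changed 4-fold were recovered, and 7 of 12636 unchanged genes were called. The simulated libraries were independent and the changed genes were random ones of at least 5 CPM. Spread shared between genes was not simulated, so this recovery does not carry over to RNAs as variable as Mir1a-1hg and Malat1. In the real data a 2.63-fold difference of Mir1a-1hg (LA against ANGPTL4, day 2) was not called. Promoters and microRNAs are RefSeq sequences (GRCm38.p6) and transcripts the longest annotated in GENCODE M21, another build than mm39; of the 4 RNAs, 2 had a promoter entry.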

Additional observations from a re-analysis of the deposited data

Results flagged for a closer look

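In 24 sets of 4 libraries (each of the 4 RNAs in each group), 3 held a library far from its fellows by Dixon's test, which flags about 1 in 20 sets by chance. Mir1a-1hg stood at 8.50 CPM in day 6 ANGPTL4 replicate 1, against 1.46 to 2.48 in the others. Malat1 stood at 12651 CPM in that same library, against 3671 to 4713. Malat1 also stood at 11732 CPM in day 2 ANGPTL4 replicate 4, against 4360 to 4887. H19 and Neat1 gave no such library.

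By a test of the difference itself in edgeR, the effect of LA differed between the days for 2554 genes, 19.7% of those tested. Igf2, beside H19, and Mir133a-2, inside Mir1a-1hg, were among them. For Igf2 the difference was -0.60 on the log2 scale (adjusted p = 0.00139), with libraries at 194 to 228 CPM with LA and 269 to 381 with vehicle at day 6. For Mir133a-2 it was -1.50 (adjusted p = 0.0181), on counts of 5 to 62 per library.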

How the results depend on the processing

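The 4 RNAs kept their direction in every called result under all 35 alternatives. The replicate numbers did not pair the samples (in 0 of 15 pairs of groups were all same-number correlations of deviations over 0.1; range -0.31 to 0.30). With the replicate block, Malat1 lost its calls for ANGPTL4 against vehicle at day 2 (adjusted p = 0.0599) and for vehicle over time (0.0624), leaving 2 and 3 of the 4 RNAs called, and the other member calls did not change. With the covariate the number called became 2 for LA against vehicle at day 2 and 1 at day 6, 3 for LA against ANGPTL4 at day 2 and 1 at day 6, 4 for LA over time and 3 for the difference of ANGPTL4 effects. The covariate takes up spread of the members by construction, so these added calls are no support. LA against vehicle at day 6 gave 1 with only the compared groups and 1 without the 3 libraries that stood apart. LA against ANGPTL4 at day 2 gave 1 with DESeq2 and 2 and 3 without the 2 and the 3 libraries; LA over time gave 4 without the 2 and 4 without the 3. The causes were not tested. Leaving out each library gave 1 to 4 called for vehicle over time, 2 to 3 for ANGPTL4 against vehicle at day 2, 0 to 2 for LA against ANGPTL4 at day 2, 2 to 3 for LA over time, 1 for ANGPTL4 over time and 0 in the other comparisons. Over all genes the calls ranged under it from 632 to 2456 for LA against vehicle at day 2 (1961 with all libraries), from 712 to 1528 for ANGPTL4 (1276) and from 6 to 363 for LA against ANGPTL4 at day 2 (12). Mir1a-1hg and its inner rows rest on 13 to 220 and 1 to 62 counts per library, which limits their precision.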
